A study of Mus musculus with 6 samples.

Results

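Genes of DNA replication and of mitosis were followed in cultured oligodendrocyte precursor cells (OPC), the dividing glial cells that later make myelin. The members were a list of 35 genes, 17 that act in S phase and 18 that act in mitosis, found on the array by symbol. On the array 34 of the 35 symbols were found, out of 30869 gene symbols in all. Cdk1 was present there only under its older symbol Cdc2a, and it is described beside the mitotic genes without being counted in the expression tests, though it is counted among the promoter windows. RNA was measured on 6 Illumina bead arrays, 3 of spinal cord OPC and 3 of cerebrum OPC. All cultures came from C57BL/6 mouse pups aged 6 to 8 days and were held for 7 days in vitro in proliferating conditions with 10 ng/ml PDGF-AA, the growth factor that drives OPC division, so that no group was grown without it. A preparation pooled 3 to 4 pups and gave 1 spinal cord and 1 cerebrum sample with the same number, so each group had 3 samples from 3 separate pools.

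A dividing cell copies its DNA in S phase and parts the copies in mitosis, and the genes for each task are switched on in turn. E2F transcription factors drive the S phase genes once the retinoblastoma protein lets go of them. The mitotic genes are held down in resting cells by the DREAM complex, which binds the cell cycle genes homology region (CHR), and rise late in the cycle when the MuvB core of that complex joins B-Myb and FoxM1. In the developing brain and spinal cord OPC are the main dividing glial cells after birth, and these genes fall when OPC leave the cell cycle to form myelin.

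RefSeq promoter windows (GRCm38.p6), from 250 bases before to 50 bases after a transcript's start, were held for 29 of the 35 members. The letters searched, on both strands, were TTTGGCGC, TTTCCCGC, TTTGCCGC and TTTCGCGC for E2F, TTTGAA for the CHR, and CCAAT for the box that binds NF-Y, a factor common at mitotic promoters. E2F letters were found at 6 of 14 S phase genes (42.9%) and 1 of 15 mitotic genes (6.67%), against 2.6% of 27025 genes in the table. CHR letters stood at 2 of 14 S phase genes (14.3%) and 11 of 15 mitotic genes (73.3%), against 20.2% of all genes. CCAAT stood at 8 of 14 S phase genes (57.1%) and 14 of 15 mitotic genes (93.3%), against 41.1% of all genes. The S phase genes with E2F letters were Mcm3, Mcm5, Mcm6, Mcm7, Cdc6 and Cdt1, and the mitotic gene with them was Cdk1. The 4 windows printed here belong to the genes whose levels, given later, differed most clearly between preparations in each list among those with a window: Cdt1 at chr8:122567765-122568064 on the plus strand, Tyms at chr5:30073576-30073875 on the minus strand, Cdk1 at chr10:69352863-69353162 on the minus strand and Birc5 at chr11:117848987-117849286 on the plus strand. They read 5′ to 3′ along the gene's strand, and capitals mark the letters matched, with ATTGG standing for CCAAT on the other strand.
Cdt1: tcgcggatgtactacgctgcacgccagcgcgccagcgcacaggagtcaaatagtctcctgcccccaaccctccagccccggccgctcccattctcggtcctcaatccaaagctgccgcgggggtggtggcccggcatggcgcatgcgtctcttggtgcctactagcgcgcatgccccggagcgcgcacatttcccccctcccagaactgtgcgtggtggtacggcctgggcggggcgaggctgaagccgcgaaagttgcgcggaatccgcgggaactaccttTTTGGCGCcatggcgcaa
Tyms: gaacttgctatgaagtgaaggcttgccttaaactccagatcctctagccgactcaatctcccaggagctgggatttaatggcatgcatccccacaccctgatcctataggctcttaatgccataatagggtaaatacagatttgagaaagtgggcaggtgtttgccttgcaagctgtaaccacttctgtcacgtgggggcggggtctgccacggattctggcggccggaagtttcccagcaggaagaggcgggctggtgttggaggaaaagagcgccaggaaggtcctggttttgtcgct
Cdk1: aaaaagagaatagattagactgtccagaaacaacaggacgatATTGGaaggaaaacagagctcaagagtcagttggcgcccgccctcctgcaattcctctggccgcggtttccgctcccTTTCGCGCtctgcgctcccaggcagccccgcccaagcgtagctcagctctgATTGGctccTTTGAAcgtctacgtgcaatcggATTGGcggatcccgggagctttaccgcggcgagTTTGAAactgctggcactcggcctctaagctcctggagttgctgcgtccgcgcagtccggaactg
Birc5: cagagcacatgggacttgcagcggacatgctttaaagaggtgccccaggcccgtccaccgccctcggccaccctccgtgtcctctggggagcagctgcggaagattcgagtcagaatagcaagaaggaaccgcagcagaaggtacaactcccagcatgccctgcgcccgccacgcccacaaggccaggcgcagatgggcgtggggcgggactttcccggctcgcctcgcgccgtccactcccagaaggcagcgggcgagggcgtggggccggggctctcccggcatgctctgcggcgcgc
Cdt1 held E2F letters at bases 283 to 290 of its window. Cdk1 held E2F letters at bases 120 to 127, CHR letters at bases 180 to 185 and 236 to 241, and CCAAT on the other strand at 3 places. The windows of Tyms and Birc5 held none of these letters, which says only that these spellings are not in these windows. Matches to different motifs did not share bases in the printed windows.

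**Figure D1:**
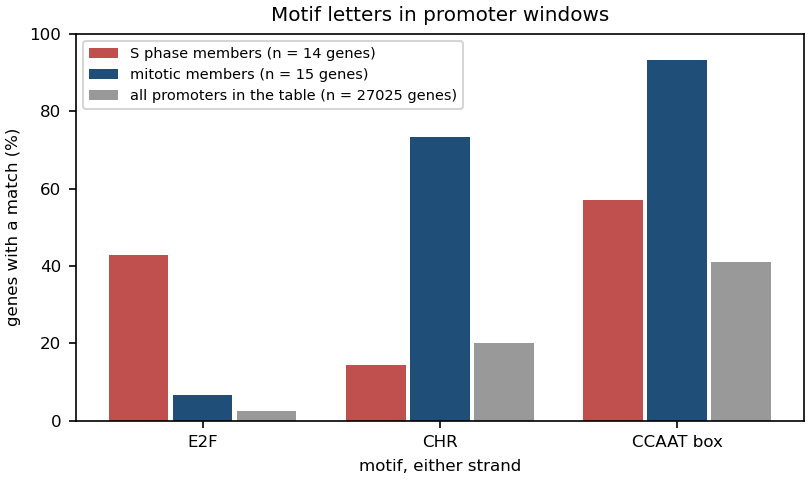
Share of genes (percent, vertical axis) whose promoter window held the letters of each motif on either strand, for S phase members (n = 14 genes), mitotic members (n = 15 genes) and all promoters in the table (n = 27025 genes). E2F letters were held by 42.9% of S phase and 6.67% of mitotic members, and CHR letters by 14.3% of S phase and 73.3% of mitotic members.

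All S phase members and most mitotic members were read above background, and 20343 to 21081 of 45281 probes were so on each array. A probe was tested when it lay above a background floor, set by olfactory receptor probes, on at least 3 of 6 arrays. All 17 S phase genes and 13 of the 17 mitotic genes found by symbol passed, so 30 were tested, as were 15039 symbols in all. The mitotic genes that did not pass were Ccnb2, a mitotic cyclin, Cenpe and Kif20a, motor proteins of the spindle, and Bub1, a spindle checkpoint kinase. None of their probes reached the floor on any array, except that of Bub1, which did so on 1 array. Ccna2 and Ube2c were tested but dim, with log2 intensities of 6.51 to 6.80 and 6.82 to 7.23 against floors of 6.07 to 6.10. Since background remained in the intensities, fold changes of such dim probes are understated. All 9 OPC markers lay above the floor. Of 10 microglial markers 3 lay above it on at least 3 arrays, while Cx3cr1, Itgam, P2ry12, C1qa, C1qb and C1qc lay below it on all arrays. Gfap and Gja1 of astrocytes also lay below it on all arrays. Of 7 neuron markers with a probe, 3 lay above it on at least 3 arrays. The lineage genes Pdgfra, Olig2 and Sox10 did not pass the test between tissues, with log2 differences of -0.20, -0.03 and 0.11 and adjusted p of 0.586, 0.986 and 0.898 in limma. Other markers did pass between tissues. Gpr17, of committed precursors, was lower in spinal cord OPC (11.25 ± 0.11 against 12.62 ± 0.63 in cerebrum OPC, SD, n = 3 each), with a log2 difference of -1.37 and an adjusted p of 0.00495 in limma. Sox9, of the astrocyte list, was lower there too (-1.25, adjusted p 0.00155), and Mbp of myelin was higher (1.04, adjusted p 0.000111). Of the 8 astrocyte markers 5 were tested, 3 with positive and 2 with negative values (median 0.12). Of the 9 OPC markers, which include Gpr17, 3 had positive and 6 negative values (median -0.04). The part of these marker differences in the comparison of the tissues was not tested.

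The first comparison set spinal cord OPC against cerebrum OPC, the contrast of the study, which asks how OPC of these tissues differ. No S phase gene and no mitotic gene passed the test. In limma, with p-values adjusted by Benjamini-Hochberg over 20988 probes, 0 of 17 S phase genes and 0 of 13 mitotic genes had an adjusted p under 0.05, where 2.49% of all symbols did. At an unadjusted p under 0.05 there was 1 S phase gene, Mcm7, and 0 mitotic genes, against 1517 of all 15039 symbols. The log2 difference, spinal cord minus cerebrum, ran from -0.08 for Ccne2 to 0.23 for Mcm7 among S phase genes, with a median of 0.10 and positive values for 16 of 17. Among mitotic genes it ran from -0.04 for Kif11 to 0.16 for Mki67, with a median of 0.06 and positive values for 11 of 13. Over all 15039 symbols the median was -0.0023 and 7391 were positive. The 95% intervals of all S phase genes lay within -0.40 and 0.49, and those of all mitotic genes within -0.28 and 0.37, so larger differences than these lie outside every interval. In bulk RNA, fewer dividing cells and less of these transcripts per cell cannot be told apart, here and in what follows.

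Mcm7, a subunit of the ring-shaped MCM helicase that unwinds DNA at the fork, came nearest to the threshold between tissues. It had log2 intensities of 11.02, 11.06 and 11.00 in spinal cord OPC (preparations 1, 2 and 3), against 10.76, 10.77 and 10.85 in cerebrum OPC. All 3 spinal cord samples lay above all 3 cerebrum samples. The difference was 0.23 ± 0.10 (SE), with an adjusted p of 0.417 in limma. The second probe of Mcm7 gave -0.04 (adjusted p 0.987). On that probe cerebrum replicate 1 had 10.06, above the spinal cord samples at 9.91, 9.73 and 9.73. Rrm2, the small subunit of ribonucleotide reductase, which makes deoxyribonucleotides, had 10.83, 10.87 and 10.73 in spinal cord OPC, against 10.51, 10.65 and 10.64 in cerebrum OPC, also without overlap. Its difference was 0.21 ± 0.10 (SE) and did not pass either (adjusted p 0.568). The other probes of Rrm2 gave 0.11 and -0.03. Mki67, which encodes the proliferation marker Ki-67, had 11.59, 11.66 and 11.51 in spinal cord OPC, against 11.51, 11.41 and 11.36 in cerebrum OPC. Spinal cord replicate 3 and cerebrum replicate 1 met at the same level, so the groups touched, and the difference of 0.16 ± 0.10 (SE) had an adjusted p of 0.746.

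Among the other mitotic genes, Top2a, the topoisomerase that untangles sister chromatids, had 12.002, 11.93 and 11.93 in spinal cord OPC, against 11.89, 11.88 and 11.69 in cerebrum OPC. Cdc20, which activates the anaphase-promoting complex, had 12.79, 12.73 and 12.81 in spinal cord OPC, against 12.67, 12.70 and 12.65 in cerebrum OPC. Cenpa, the histone that marks the centromere, had 14.23, 14.26 and 14.24 in spinal cord OPC, against 14.15, 14.20 and 14.22 in cerebrum OPC. On the probes used, the spinal cord samples of these 3 genes all lay above the cerebrum samples, by 0.13, 0.10 and 0.06 on average. The adjusted p in limma were 0.82, 0.871 and 0.95. Other tested probes of Cdc20 went the other way, with -0.05, -0.07 and -0.09, and those of Top2a gave 0.12 and -0.06. Counting genes in which all 3 spinal cord samples lay above all 3 cerebrum samples gave 2 of 17 S phase and 3 of 13 mitotic genes, and 7.93% of all symbols. No member showed the opposite separation among the 30 tested. The share of all symbols with that opposite separation is not given here, so nothing is read from its absence. Within the same-numbered pairs, spinal cord lay above cerebrum in all 3 pairs for 9 of 17 S phase and 5 of 13 mitotic genes, and for 17.8% of all symbols.

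With the preparation as a replicate block in the model, still 0 S phase and 0 mitotic genes passed in limma, while the share of all symbols called was 5.52%. The lowest adjusted p was then 0.137 for the S phase genes, that of Mcm7, and 0.384 for the mitotic genes. At an unadjusted p under 0.05 there were 6 S phase genes and 0 mitotic genes in the blocked fit. The 6 were Mcm2, Mcm4, Mcm5, Mcm6, Mcm7 and Rrm2, whose 95% intervals there lay above 0. Symbols as a whole were not counted at that cutoff in the blocked fit. Its 95% intervals lay within -0.31 and 0.41 for S phase genes and within -0.22 and 0.33 for mitotic genes.

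**Figure D2:**
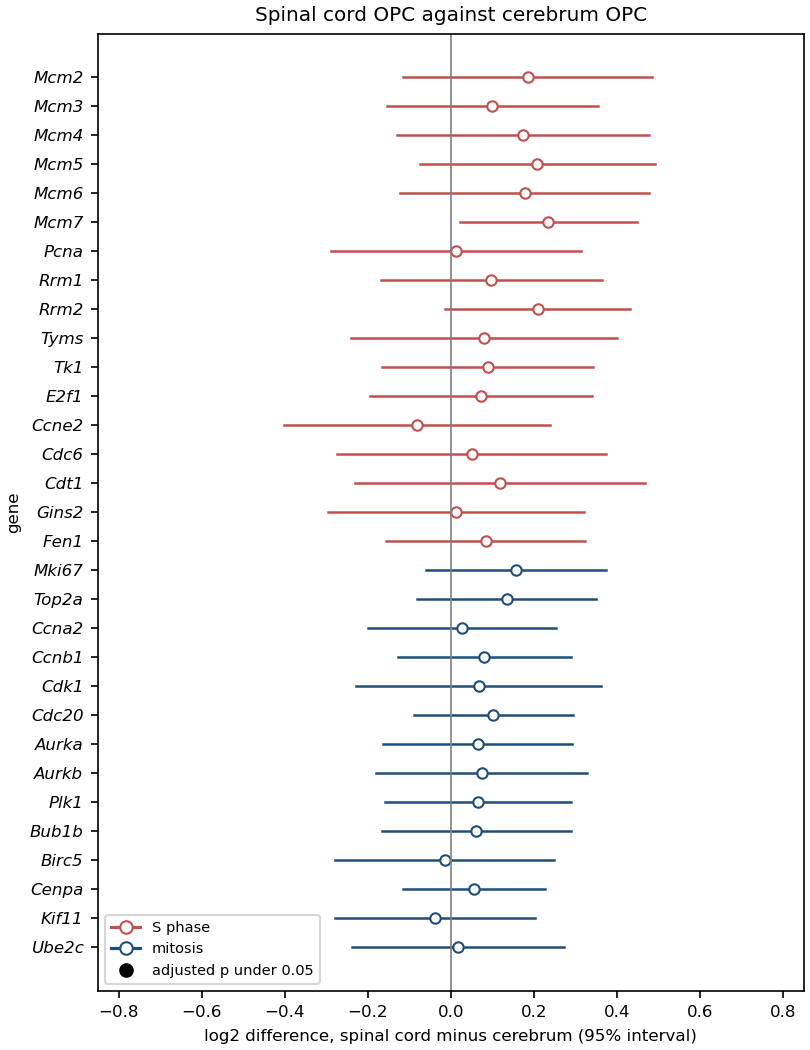
Log2 difference, spinal cord OPC minus cerebrum OPC, of the tested S phase (red) and mitotic (blue) genes and of Cdk1, with 95% intervals from limma (n = 3 samples a tissue). Points are open because no member had an adjusted p under 0.05, and the largest difference was 0.23 for Mcm7.

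The second comparison set the preparations against each other with tissue in the model, since samples of the same number were cells of the same pool of pups. Between preparation 3 and preparation 1 the S phase genes moved in opposite directions. Of 17 S phase genes, 9 passed in limma at an adjusted p under 0.05 (52.9%), where 9.02% of all symbols did. The 7 that were lower in preparation 3 were Mcm2, Mcm4, Mcm5, Mcm6, Cdt1, Cdc6 and Rrm1 (3.83% of all symbols were called lower), and the 2 that were higher were Tyms and Pcna (5.19% were called higher). No mitotic gene passed among 13 tested, and 1 had an unadjusted p under 0.05, Birc5. At that cutoff there were 14 of 17 S phase genes and 3922 of 15039 symbols. The median log2 difference, preparation 3 minus preparation 1, was -0.25 over S phase genes, -0.03 over mitotic genes and -0.01 over all symbols. Each preparation is 1 pool of pups with 1 sample a tissue, so these p-values set the pools against the scatter left after tissue and say nothing of pools in general.

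**Figure D3:**
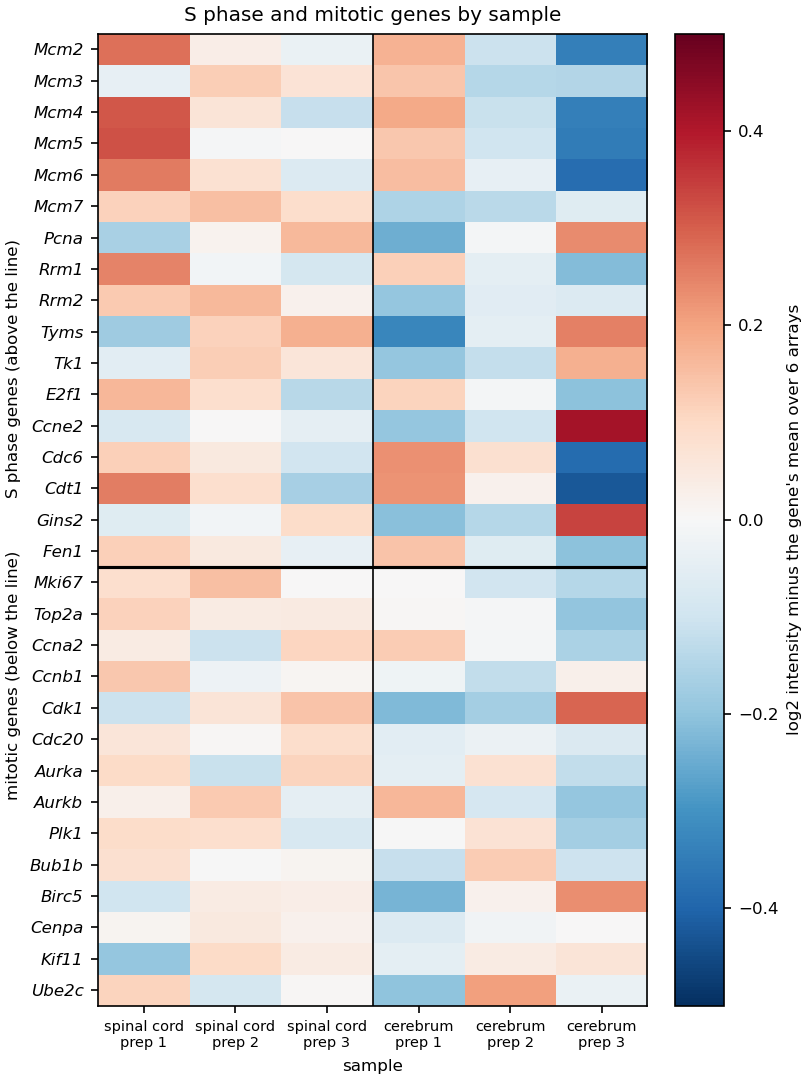
Log2 intensity of each tested member and of Cdk1 (rows) in each sample (columns), as the deviation from the gene's mean over 6 arrays (red above, blue below). Spinal cord OPC are the left 3 columns and cerebrum OPC the right 3, and the widest deviations of the S phase genes, from -0.42 to 0.42, lie in the cerebrum sample of preparation 3.

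The MCM helicase genes made up most of the lower group. Their products form the ring that is loaded onto DNA before S phase and opens it during replication. Mcm4 had log2 intensities of 13.21 and 12.99 in preparation 3 (spinal cord, then cerebrum), 13.39 and 13.22 in preparation 2, and 13.64 and 13.52 in preparation 1. Both samples of preparation 3 lay below both of preparation 1, and the difference was -0.48 ± 0.09 (SE), or 0.717-fold, with an adjusted p of 0.00554 in limma. Mcm6 had 11.86 and 11.55 in preparation 3, 12.01 and 11.89 in preparation 2, and 12.19 and 12.09 in preparation 1. Its difference of -0.43 ± 0.10 (SE) also separated the samples of preparation 3 from those of preparation 1 (adjusted p 0.0151). Mcm2 had 11.10 and 10.79 in preparation 3, 11.17 and 11.02 in preparation 2, and 11.41 and 11.30 in preparation 1, a difference of -0.41 ± 0.10 (SE, adjusted p 0.0219). Mcm5 had 13.22 and 12.87 in preparation 3, 13.21 and 13.12 in preparation 2, and 13.53 and 13.35 in preparation 1, a difference of -0.40 ± 0.09 (SE, adjusted p 0.0162). In both genes the samples of preparation 3 lay below those of preparation 1. The remaining subunits did not pass. Mcm3 differed by -0.09 ± 0.12 (SE, adjusted p 0.697) and Mcm7 by 0.03 ± 0.10 (SE, adjusted p 0.877).

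The origin licensing factors Cdt1 and Cdc6, which load the MCM ring, were lower as well. Cdt1, whose promoter window is printed above, had 10.67 and 10.41 in preparation 3, 10.92 and 10.85 in preparation 2, and 11.09 and 11.06 in preparation 1. Its difference of -0.53 ± 0.10 (SE), or 0.691-fold, was the widest among the S phase members (adjusted p 0.00769 in limma). Cdc6 had 9.52 and 9.23 in preparation 3, 9.67 and 9.70 in preparation 2, and 9.74 and 9.85 in preparation 1. It differed by -0.42 ± 0.12 (SE, adjusted p 0.0377), and its cerebrum sample of preparation 3 was the lowest of the 6. Gins2, a subunit of the GINS complex that activates the loaded helicase, had 9.78 and 10.03 in preparation 3, 9.68 and 9.55 in preparation 2, and 9.63 and 9.48 in preparation 1. Its value was positive, 0.35 ± 0.12 (SE), and did not pass (adjusted p 0.0732).

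The genes of nucleotide supply and of the fork were split. Tyms, thymidylate synthase, had 11.44 and 11.52 in preparation 3, 11.38 and 11.22 in preparation 2, and 11.09 and 10.94 in preparation 1. It was higher in preparation 3 by 0.47 ± 0.10 (SE), or 1.38-fold (adjusted p 0.0132 in limma). Pcna, the clamp that holds the polymerase on DNA, had 9.09 and 9.16 in preparation 3, 8.94 and 8.91 in preparation 2, and 8.76 and 8.68 in preparation 1. It was higher by 0.40 ± 0.11 (SE), or 1.32-fold (adjusted p 0.0330), and in both genes the samples of preparation 3 lay above those of preparation 1. Rrm1, the large subunit of ribonucleotide reductase, had 11.70 and 11.57 in preparation 3, 11.78 and 11.74 in preparation 2, and 12.04 and 11.91 in preparation 1. It was lower, with a difference of -0.34 ± 0.10 (SE, adjusted p 0.0387), whereas its partner subunit Rrm2 differed by 0.01 ± 0.10 (SE, adjusted p 0.972). Tk1, thymidine kinase, had a value of 0.24 (adjusted p 0.164), and Fen1, the flap nuclease of the lagging strand, -0.25 (adjusted p 0.105). The regulators of S phase entry did not pass either: E2f1, itself an E2F factor, had -0.31 (adjusted p 0.0694), and Ccne2, a cyclin of the step into S phase, 0.32 (adjusted p 0.136).

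**Figure D4:**
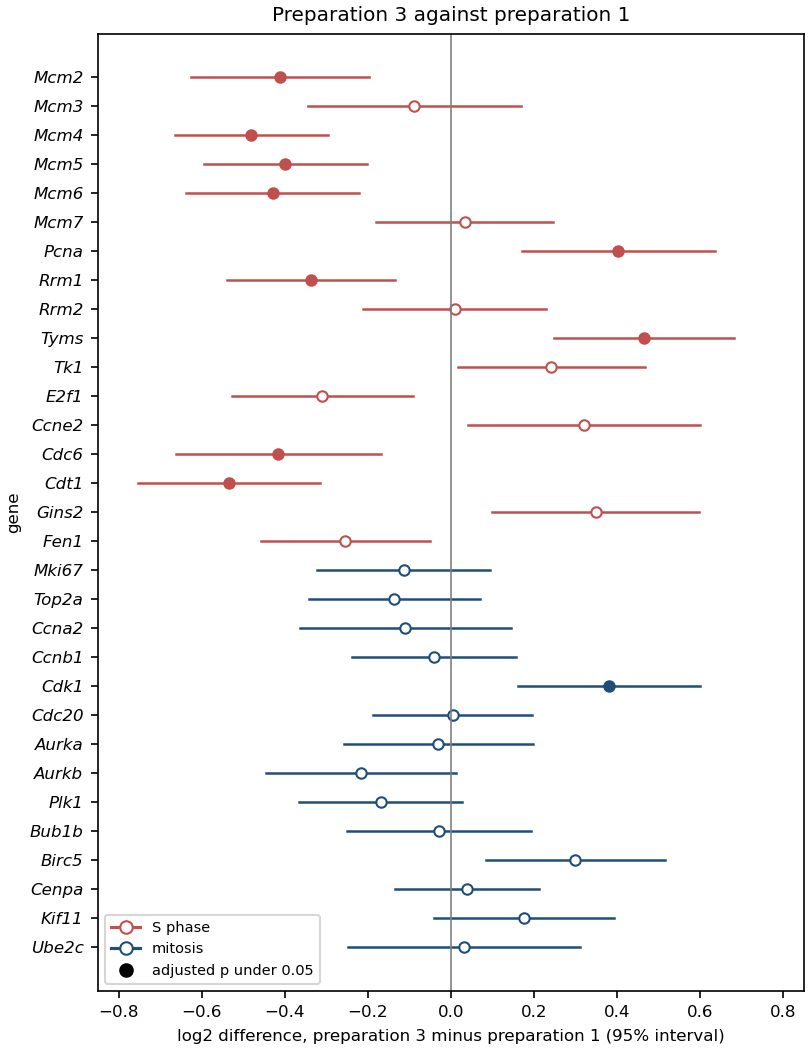
Log2 difference, preparation 3 minus preparation 1, of the tested S phase (red) and mitotic (blue) genes and of Cdk1, with 95% intervals from limma (2 samples a preparation, 1 per tissue). Filled points had an adjusted p under 0.05: 7 S phase genes below 0, Pcna and Tyms above 0, and Cdk1, which lies above 0 at 0.38.

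In the mitotic genes the values between preparation 3 and preparation 1 were smaller. Birc5, which encodes survivin of the chromosomal passenger complex, had 12.09 and 12.29 in preparation 3, 12.10 and 12.07 in preparation 2, and 11.95 and 11.82 in preparation 1. Both samples of preparation 3 lay above both of preparation 1, with a difference of 0.30 ± 0.10 (SE) that did not pass (adjusted p 0.0748 in limma). The dimmer of its other probes gave 0.30 (adjusted p 0.0686), and the remaining probe gave 0.47 and passed (adjusted p 0.0138). Cdk1, the kinase that starts mitosis, had 12.34 and 12.49 in preparation 3, 12.27 and 12.03 in preparation 2, and 12.09 and 11.98 in preparation 1 on its brightest probe, under the symbol Cdc2a. It was higher in preparation 3 by 0.38 ± 0.10 (SE, adjusted p 0.0331), while its 2 dimmer probes gave -0.15 and -0.19 and did not pass (adjusted p 0.458 and 0.324).

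The proliferation marker Mki67 differed by -0.11 ± 0.10 (SE) between preparation 3 and preparation 1, with an adjusted p of 0.505. The cyclins Ccna2 and Ccnb1, which partner Cdk1, had -0.11 and -0.04, and the mitotic kinases Plk1, Aurka and Aurkb had -0.17, -0.03 and -0.22. Top2a had -0.14, Bub1b, a spindle checkpoint protein, -0.03, and Cenpa 0.04. Kif11, the motor that pushes the spindle poles apart, had 0.18, and Cdc20 and Ube2c, which act with the anaphase-promoting complex, 0.004 and 0.03. The adjusted p of these 12 genes in limma lay between 0.223 for Aurkb and 0.986 for Cdc20, which does not show that the levels were equal: the 95% interval of Aurkb ran from -0.45 to 0.01 and that of Kif11 from -0.04 to 0.39.

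Several S phase genes were read by more than 1 probe. Of the 9 that passed, 5 had 11 other tested probes, of which 9 had the same sign and 2 passed in the same direction (8.75% of all tested probes passed), 1 each of Tyms and Cdc6. The 3 other probes of Mcm6 gave between -0.16 and -0.14 (lowest adjusted p 0.327), and the other probes of Mcm4, far dimmer, gave -0.21 and -0.11. For Mcm7 the second probe gave -0.33 (adjusted p 0.0739), against 0.03 on the probe used. Another probe of Gins2 gave 0.58 and passed (adjusted p 0.0116), as did a probe listed under the clone name 4833427B12Rik, a synonym of Gins2, with 0.47 (adjusted p 0.0350). A dim probe of Top2a gave -0.36 and passed by little (adjusted p 0.0491), while its middle probe gave 0.05. With the mean of a gene's tested probes in place of the brightest, 6 S phase genes passed. Mcm4 (-0.27), Mcm6 (-0.22), Rrm1 (-0.22) and Tyms (0.13, against 0.47 on the brightest probe) no longer did, and Gins2 (0.46) then passed.

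Preparation 3 minus preparation 1 had the same sign in spinal cord OPC and in cerebrum OPC for 14 of 17 S phase genes, 9 lower and 5 higher, and for 7 of 13 mitotic genes, against 68.7% of all symbols. The median of that difference over S phase genes was -0.16 in spinal cord OPC and -0.32 in cerebrum OPC. In size it was larger in cerebrum OPC for 16 of 17 S phase genes, which is a description with 1 sample a preparation in each tissue. The SD over the 3 samples had a median of 0.16 in spinal cord OPC and 0.24 in cerebrum OPC over S phase genes, against 0.10 and 0.13 over all symbols. Calls rested on 2 cerebrum samples: without cerebrum replicate 1 the count of S phase genes that passed fell to 0, and without cerebrum replicate 3 to 1, Mcm4 (-0.44, adjusted p 0.0199 in limma). In those fits 206 and 157 of all 20988 probes passed, against 1836 with all samples. Without spinal cord replicate 1 the median over S phase genes was -0.31, against -0.25 with all samples. It was also -0.31 without spinal cord replicate 3, but -0.18 without cerebrum replicate 1 and -0.19 without cerebrum replicate 3. No called gene changed sign in any of 12 alternative settings, but none passed in all of them: Rrm1 lost its call in 6, Pcna in 4 and the other 7 genes in 2 or 3 each. Quantile normalization was among these settings and could change little, since the deposited arrays already shared their quartiles. Other filters, no intensity trend and leaving out a sample of preparation 2 could not change a gene's difference, and so not its sign.

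**Figure D5:**
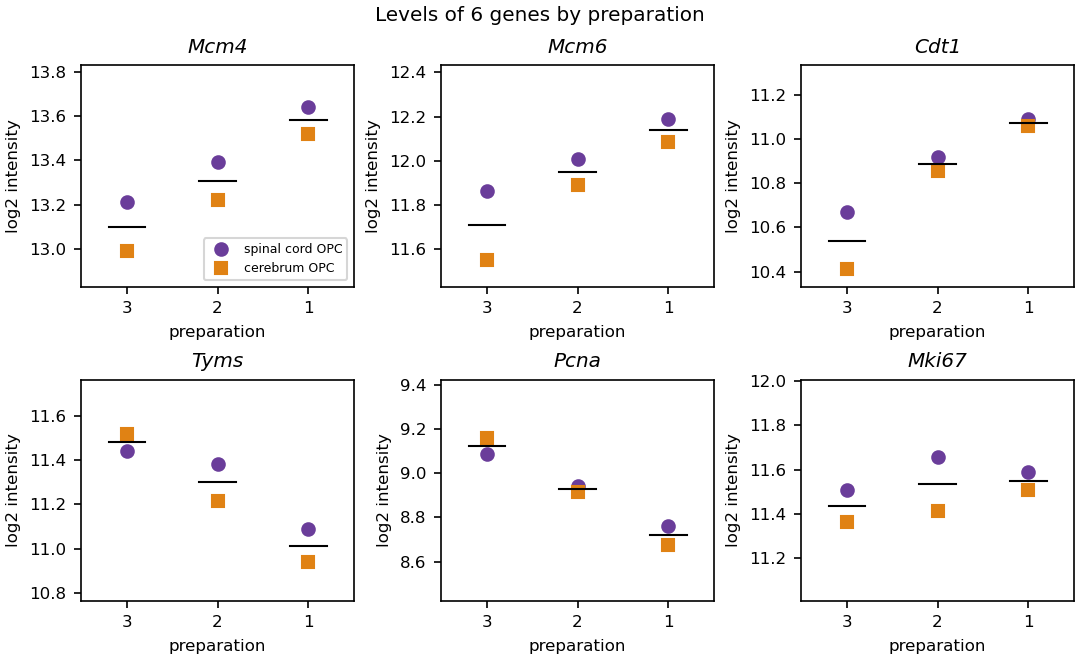
Log2 intensity of Mcm4, Mcm6, Cdt1, Tyms, Pcna and Mki67 by preparation (horizontal axis) in spinal cord OPC (circles) and cerebrum OPC (squares), with a bar at the mean of both. Mcm4, Mcm6 and Cdt1 were lower and Tyms and Pcna higher in preparation 3 than in preparation 1 in both tissues, while Mki67 did not pass the test.

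Averaged over both tissues, preparation 2 lay between the others for each of the 9 S phase genes that passed, and it differed from neither beyond the threshold for any member. Genes picked for a difference between preparations 3 and 1 tend to show that order, and its share over all symbols was not counted. Between preparation 2 and preparation 1, 0 of 17 S phase and 0 of 13 mitotic genes passed in limma (0.206% of all symbols did). At an unadjusted p under 0.05 there were 5 and 0, against 1511 of all 15039 symbols. The largest value there was 0.29 for Tyms, and the lowest was -0.28 for Mcm5 (adjusted p 0.359 and 0.319). Between preparation 3 and preparation 2, again 0 and 0 passed (0.146% of all symbols). At an unadjusted p under 0.05 there were 5 and 1, against 2301 of all 15039 symbols. Cdt1 had the lowest value there, -0.35 ± 0.10 (SE, adjusted p 0.160), and Gins2 the highest, 0.29 ± 0.12 (SE, adjusted p 0.267). The preparation contrasts share samples, so their values are not independent of each other. Without spinal cord replicate 3 the median over S phase genes was -0.145 between preparation 3 and preparation 2, against -0.117 with all samples. Without cerebrum replicate 3 it was -0.058. Between preparation 2 and preparation 1 the median was -0.10 with all samples. It was -0.19 without spinal cord replicate 1 and -0.06 without cerebrum replicate 1. Leaving out a sample of preparation 3 could not change it, since the fit then gives the remaining sample of that preparation its own term.

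The rest of the replication and mitosis machinery, taken from lists of 64 and 68 further genes, gave no call between the tissues. Of 59 other replication genes tested, 0 passed in limma between spinal cord and cerebrum OPC, with a median of 0.06. At an unadjusted p under 0.05 there were 2, against 1517 of all 15039 symbols. Of 63 other mitosis genes 0 passed (median 0.06, 1 at an unadjusted p under 0.05). The widest values were -0.33 for Nasp, a histone chaperone, and 0.30 for Dscc1, which acts in sister chromatid cohesion, with adjusted p of 0.588 and 0.247. Among mitosis genes they were 0.25 for Ncaph, a condensin subunit, and 0.24 for Ckap2l, a spindle protein, with adjusted p of 0.435 and 0.694.

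Between preparation 3 and preparation 1 these lists held calls in both directions. Of the 59 other replication genes, 4 were higher and 5 lower (15.3%, against 9.02% of all symbols), with a median of -0.12. The lower genes were Msh6 of mismatch repair (-0.61 ± 0.10, SE, adjusted p 0.0034), Uhrf1 (-0.52, adjusted p 0.00789) and Dnmt1 (-0.50, adjusted p 0.0135), which copy DNA methylation onto the new strand, Nasp (-0.42, adjusted p 0.0286) and the ligase Lig1 (-0.38, adjusted p 0.0295). Msh6 had 12.07 and 11.73 in preparation 3, against 12.61 and 12.42 in preparation 1, so its samples were separated. The higher genes were Rfc3 of the clamp loader (0.58 ± 0.13, SE, adjusted p 0.0138), Rad51ap1 of recombination (0.57, adjusted p 0.0173), Rpa3 of the single-strand binding complex (0.40, adjusted p 0.0345) and the primase Prim1 (0.38, adjusted p 0.0460). Rfc3 had 9.88 and 10.12 in preparation 3, against 9.48 and 9.36 in preparation 1.

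Of the 63 other mitosis genes, 5 were higher and 3 lower (12.7%), with a median of -0.05. Higher were the chromatin protein Hmgb2 (0.59 ± 0.12, SE, adjusted p 0.0106), the kinetochore genes Spc25 (0.39, adjusted p 0.0309) and Cenpk (0.42, adjusted p 0.0431), the microtubule-binding Ckap2 (0.38, adjusted p 0.0432) and the checkpoint gene Mad2l1 (0.38, adjusted p 0.0454). Lower were Gtse1, a microtubule-binding protein of late cell cycle phases (-0.49, adjusted p 0.0126), the lamin Lmnb1 (-0.63, adjusted p 0.0126) and Prc1 of the spindle midzone (-0.32, adjusted p 0.0472). In the other preparation contrasts neither list had a call. The largest values were -0.43 for Msh6 and 0.36 for the replication kinase Cdc7, and 0.50 for Hmgb2 and 0.36 for the checkpoint kinase Ttk, between preparation 2 and preparation 1 (adjusted p from 0.136 to 0.319). Between preparation 3 and preparation 2 they were -0.52 for Nasp and -0.47 for E2f2, and -0.36 for Gtse1 and -0.32 for Lmnb1 (adjusted p from 0.0831 to 0.294).

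Markers of other stages and cell types moved between the same preparations. Mag, a myelin protein gene, was higher in preparation 3 than in preparation 1 by 0.56 ± 0.14 (SE, adjusted p 0.0227 in limma), and Gpr17 of committed precursors by 0.65 ± 0.16 (SE, adjusted p 0.0206). Gpr17 also belongs to the 9 OPC markers summed below, of which 2 had positive and 7 negative values (median -0.13). Mag had 7.51 and 6.32 in preparation 3, 6.54 and 6.03 in preparation 2, and 6.65 and 6.05 in preparation 1. Mag was thus dim, and its cerebrum samples of preparations 1 and 2 lay below their floors of 6.07 and 6.09. Of the 7 myelin markers 4 were tested and Mog lay below the floor on all arrays. The sum over 9 OPC markers was 69222 and 77334 in preparation 3, 70624 and 75494 in preparation 2, and 75357 and 85175 in preparation 1. The astrocyte list had 5 of 8 markers above the floor, with sums of 21608 and 23200 in preparation 3 against 22888 and 30893 in preparation 1, and Sox9, which OPC also express, was lower (-0.63, adjusted p 0.00319). Of the neuron list 3 of 7 genes were tested, and Syt1 was lower (-0.51, adjusted p 0.0141). Microglial sums lay between 592 and 618 on all arrays, and 0 of 3 tested genes passed. Of the endothelial, fibroblast and ependymal lists 3, 1 and 3 genes were tested, and 0 passed. Pdgfra, Olig2 and Sox10 had -0.21, -0.02 and -0.27 and did not pass (adjusted p 0.137, 0.934 and 0.0583). The part of these markers in the differences of the S phase genes was not tested, and pups, culture and array of a preparation cannot be told apart.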

How the data were processed

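RNA from 3 spinal cord and 3 cerebrum OPC cultures was biotin-labelled and measured on Illumina bead arrays, following the labels' protocols. The submitters' processing notes list GenomeStudio 2011.1. Deposited linear probe intensities were taken from the authors' processed table (36.5 to 49682). All 6 columns share the same quartiles, and how they were normalized is not given in the sources used. A further table has 12 value columns whose names match no label. They were not used, and its symbol column named the probes.

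Values were log2 transformed. A probe was tested if it exceeded the 95th percentile of 1302 Olfr (olfactory receptor) probes of its array on at least 3 of 6 arrays, which left 20988 of 45281. Tests used limma 3.58.1 in R 4.3.3 (lmFit, eBayes with intensity trend) with Benjamini-Hochberg adjustment over tested probes and a threshold of 0.05, and were checked on simulated data. The main tissue fit had no block and so did not use the pairing, and the blocked fit was an alternative. The preparation contrasts had tissue in the model. The median standard error was 0.11 in both, and the small number of arrays limits precision. Each gene was read by its brightest probe. Same-numbered samples came from the same preparation, per the labels, and their deviations from tissue means correlated with 0.525, 0.206 and 0.496, against -0.455 to 0.031 for other pairs, so the numbers were taken as pairs. The members and lists were chosen with earlier results of these data known. All members were named, and of the other lists up to 4 called genes per direction, or the 2 largest differences where none was called. Lig1 and Mad2l1, the fifth of their groups, and other-cell markers were named after their values were seen, as was the choice of further probes. Alternatives were the block, quantile normalization, normexp background, other filters, no trend, the mean of a gene's probes and leaving out each array. A result of the myelin list is not reported here.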

Additional observations from a re-analysis of the deposited data

How the results depend on the processing

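Between the tissues, 0 S phase and 0 mitotic genes passed under every alternative run, the replicate block included. The block gave 1068 called probes over the whole table, against 484 without it, but changed no member's call. Leaving out each array gave 285 to 899 called probes, medians of 0.061 to 0.178 over S phase genes and 0.026 to 0.113 over mitotic genes. For preparation 3 minus preparation 1, leaving out each array gave 0 to 13 S phase and 0 to 1 mitotic calls, mitotic medians of -0.068 to 0.017 and 157 to 4207 called probes, against 1836 with all arrays. Without a filter, where more probes were tested, 1134 probes and 6 S phase genes passed there, and Cdc6, Pcna and Rrm1 were lost. With the mean of a gene's tested probes 6 S phase genes passed, with Mcm4, Mcm6, Rrm1 and Tyms lost and Gins2 gained, and 1 mitotic gene passed, Birc5 (0.36, adjusted p 0.0488 in limma), as it did without spinal cord replicate 3 (0.44, adjusted p 0.00432). For preparation 2 minus preparation 1, leaving out arrays gave 0 to 2 S phase calls, S phase medians of -0.19 to -0.06 and 22 to 385 called probes, against 39. For preparation 3 minus preparation 2 it gave 0 to 5 S phase calls, medians of -0.145 to -0.058 and 27 to 2040 called probes, against 25, and the mean of tested probes gave a median of -0.055. A fit that leaves a preparation with 1 sample assumes that this sample varies like the others. The cause of these shifts was not tested. Dim probes limit Ccna2 and Ube2c, and 4 mitotic genes below the floor were not tested.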
